A study of Callithrix jacchus with 3 samples.

Results

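The subject of this report is the set of small RNA sequences of 26 to 32 nt that begin with guanosine (G), in the testis of the adult common marmoset (Callithrix jacchus). They were chosen by length and first base alone, from deposited lists that give each distinct sequence and its number of reads. In total small RNA, 125777 of 2188395 distinct sequences of this length began with G, and they held 749420 of 12001432 reads. In the RNA recovered with MARWI, 395889 of 6244480 sequences began with G, and they held 2525953 of 106621469 reads. Over both libraries together the set had 474981 of 7460972 sequences. Of the G-start sequences, 46685 were present in both libraries, 37.1% of those of total small RNA and 11.8% of those of MARWI-IP. Sequences present in both were not counted for the other first bases, so this is no trait of the G-start set.

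Total small RNA came from the testis of a wild type animal aged 41 months and was selected by size on a gel. For MARWI-IP, the PIWI protein MARWI was immunoprecipitated from lysate of wild type testis, from animals aged 41 and 51 months. The label of MARWI-IP names 2 replicates, but the list has 1 column of reads, so no spread between animals, no test and no comparison of the ages could be made. The intervals given here are exact 95% intervals for counting error only, and reads amplified by PCR without molecular identifiers are not independent molecules. No control immunoprecipitation was analysed here, and the 51-month age and the immunoprecipitation cannot be told apart in MARWI-IP. In bulk tissue, fewer cells of a type and less RNA per cell also cannot be told apart.

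PIWI proteins bind piRNAs, small RNAs of germ cells that silence transposons and that, during meiosis in mammals, arise in large numbers from long single-stranded transcripts. Most piRNAs begin with uridine (U), because their 5′ ends are cut ahead of a U and because the PIWI protein has a pocket that prefers it. In the ping-pong cycle, PIWI cleavage guided by one piRNA makes the 5′ end of another, the first 10 nt of both are complementary, and a partner of a U-start piRNA carries A at position 10. RNAs of the same length can also come from other sources, such as the 5′ parts of tRNAs, the adaptors of translation, and those of Y RNAs, which are short noncoding RNAs bound by the Ro protein. Sequences are printed as in the lists, with T for U.

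Shown first are sequences among the leaders of the G-start reads of total small RNA, in lower case with the first base and the base at position 10 in capitals. They begin with the 5′ end of a tRNA or a Y RNA, and the 2 forms of tRNA-Val-CAC are the commonest of total small RNA and of MARWI-IP.
tRNA-Gly-GCC, 31 nt: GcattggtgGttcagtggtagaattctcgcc
tRNA-Val-CAC, 32 nt: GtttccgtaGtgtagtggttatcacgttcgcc
tRNA-Val-CAC, 29 nt: GtttccgtaGtgtagtggttatcacgttc
tRNA-Lys-CTT, 32 nt: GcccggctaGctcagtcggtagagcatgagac
Y-RNA-4, 32 nt: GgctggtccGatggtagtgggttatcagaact
Y-RNA-1, 32 nt: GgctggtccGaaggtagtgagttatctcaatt
All 5 of these RNAs have G at position 10.

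Next are the leading G-start sequences of MARWI-IP, 1 for each 5′ end, here called M1 to M7 in order of reads, and the leading 2 sequences of total small RNA that matched no listed RNA and were not among the leaders of MARWI-IP, S1 and S2. Their genome positions are not known from the lists, which give no coordinates.
M1, 31 nt: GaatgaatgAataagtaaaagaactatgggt
M2, 30 nt: GccaatgttCacagaattcttgttcactgc
M3, 31 nt: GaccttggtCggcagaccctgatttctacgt
M4, 29 nt: GtggaaagtCtcagctaattcaggtgtct
M5, 29 nt: GtggaagaaAagttggatgcatttgaagt
M6, 29 nt: GacactgtaAaatacttatctctctctgg
M7, 30 nt: GtactgtatGagtgtaagatacaccagaga
S1, 31 nt: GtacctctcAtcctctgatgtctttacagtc
S2, 30 nt: GgagttgaaTtctaggagaaatgtctcagt

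G was the rarest first base in MARWI-IP but the second most frequent in total small RNA. It began 6.24% of the 26 to 32 nt reads of total small RNA (6.23 to 6.26) and 2.37% of those of MARWI-IP (2.366 to 2.372), a ratio of 0.379 (0.378 to 0.380). The G-start share was thus 2.64-fold lower with MARWI, whereas the share of T-start reads was 1.07 times as high and those of A-start and C-start reads were 0.793 and 0.797 times as high. Counted as distinct sequences the order turned, with G beginning 5.75% of the sequences of total small RNA and 6.34% of those of MARWI-IP. When the reads of MARWI-IP were thinned at random to the number in total small RNA, G began 5.66% of its distinct sequences, so the higher value went with the greater depth of MARWI-IP.

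Parts of tRNAs made up the difference in large part. Of the G-start reads of total small RNA, 389364 (52.0%) shared the first 18 nt of a listed tRNA 5′ end, and they came from only 174 sequences. In MARWI-IP 60711 G-start reads (2.40%) from 129 sequences did so. The share of these tRNA reads among all reads of the window was 3.24% in total small RNA and 0.0569% with MARWI, 57.0-fold lower. Without them, G began 3.0001% of all reads of total small RNA (2.99 to 3.01) and 2.31% of those of MARWI-IP (2.309 to 2.315), a ratio of 0.771 (0.768 to 0.773) that lies close to the ratios of the A-start and C-start reads. Leaving out Y RNA and 5S rRNA parts as well gave 2.76% and 2.31%, a ratio of 0.836 (0.833 to 0.839). The listed ends all begin with G, so no such parts were left out of A-start, C-start or T-start reads, here or below.

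Of the 27 G-start tRNA 5′ ends listed, 19 had reads and 15 had at least 100 reads in total small RNA, and all 15 had a lower share in MARWI-IP. The glycine tRNA with anticodon GCC was far the most abundant, with 325439 reads in total small RNA and 31691 with MARWI. It alone was 43.4% of the G-start reads of the first and 1.25% of those of the second, and its share of the library was 91.2-fold lower with MARWI. A second form of this tRNA, which differs near its 5′ end, had 13809 and 1448 reads and was 84.7-fold lower.

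The lowest of the 15 was tRNA-Val-TAC, with 163 reads and 1 read, a ratio of 0.000691 (1.74e-05 to 0.00390). The 2 lysine tRNAs were also lower than tRNA-Gly-GCC, tRNA-Lys-CTT with 14207 and 442 reads by 286-fold and tRNA-Lys-TTT with 4176 and 245 reads by 151-fold. At the other end, tRNA-Gln-CTG had 355 reads in total small RNA and 2784 with MARWI, a ratio of 0.883 (0.790 to 0.989). Between them lay tRNA-His-GTG, with 576 and 894 reads and a ratio of 0.175, and tRNA-Val-CAC, with 24553 and 22435 reads and a ratio of 0.103. The intervals of tRNA-Lys-CTT, tRNA-Val-CAC, tRNA-His-GTG and tRNA-Gln-CTG did not overlap, so the tRNA parts did not share 1 ratio. Y-RNA-4, with 14326 and 1650 reads, was 77.1-fold lower and Y-RNA-1, with 12431 and 309 reads, was 357-fold lower, within the range of the tRNAs.

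The ratio of a single tRNA part differed between its lengths, and the 5 tRNAs examined by length had their lowest ratio at the longest length given for each. At 26 nt, tRNA-Gly-GCC had 406 reads in total small RNA against 1019 with MARWI, a ratio of 0.283 (0.252 to 0.318), and 88245 and 3691 reads at 32 nt, a ratio of 0.00471 (0.00455 to 0.00487). Its ratio was lower at each added nucleotide, but at 29 and 30 nt, with 0.0214 and 0.0208, the intervals overlapped. In tRNA-Val-CAC the step was sharper. At 28 nt it had 219 and 2216 reads, a ratio of 1.14 (0.991 to 1.31), at 29 nt 2884 and 18555 reads, a ratio of 0.724, and at 32 nt 20110 and 666 reads, a ratio of 0.00373.

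The 29 nt form shown above was thus the commonest form of tRNA-Val-CAC in MARWI-IP, with 18470 reads, while the 32 nt form, 3 nt longer at its 3′ end, was the commonest in total small RNA with 20106. tRNA-Gln-CTG exceeded its total share at 28 nt, with 30 and 764 reads and a ratio of 2.87 (1.99 to 4.28), and at 29 nt, with 25 and 566 reads and a ratio of 2.55 (1.71 to 3.97). At 31 nt it had 30 and 4 reads, a ratio of 0.0150 (0.00384 to 0.0426). tRNA-His-GTG had 26 and 44 reads at 28 nt, a ratio of 0.190 (0.115 to 0.322), so its shorter form was not the less reduced one. Its ratio was 0.920 (0.661 to 1.31) at 29 nt, 0.605 at 30 nt and 0.00494 (0.00234 to 0.00925) at 31 nt, with 228 and 10 reads at the latter. tRNA-Lys-CTT did not approach 1 at any length and showed no order from 26 to 29 nt, with ratios of 0.0161, 0.0494, 0.0120 and 0.0213. Its 32 nt form had 10155 reads in total small RNA and 7 with MARWI.

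The lengths of the G-start reads differed between the libraries mainly through these parts. At 29 and 30 nt, the lengths at which T-start reads peaked in both libraries, lay 31.3% of the G-start reads of total small RNA and 60.1% of those of MARWI-IP. At 31 and 32 nt lay 53.4% and 13.03%. With the tRNA parts left out, 49.0% of the reads of total small RNA (48.8 to 49.2) and 60.3% of those of MARWI-IP (60.28 to 60.40) were of 29 or 30 nt. The tRNA parts themselves were mostly of 31 and 32 nt in total small RNA, at 81.9%, but not in MARWI-IP, at 29.1%. For comparison, 60.4% of the T-start reads of total small RNA and 68.8% of those of MARWI-IP were of 29 or 30 nt, so a smaller share of the remaining G-start reads than of T-start reads had these lengths in both libraries.

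The share of the remaining G-start reads was equal in both libraries at 29 nt and lower in MARWI-IP at the other lengths. At 29 nt there were 90752 reads in the total library against 805638 with MARWI, a ratio of 0.999 (0.992 to 1.006). Going up in length, the ratio fell to 0.896 at 30 nt, 0.536 at 31 nt and 0.188 at 32 nt. Going down, it fell to 0.833 at 28 nt, 0.626 at 27 nt and 0.616 at 26 nt. T-start reads had their highest ratios at 29 and 30 nt too, at 1.23 and 1.21, but at 32 nt their ratio of 0.636 was well above that of the G-start reads. Just outside the length window, G began 4.48% of the MARWI-IP reads of 24 and 25 nt and 6.76% of those of 33 nt, and 7636 of the 22111 G-start reads of 33 nt were tRNA parts.

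The 3′ ends of the unlisted G-start sequences varied around a main form. Among 5′ ends with at least 100 reads, 285 in total small RNA and 2595 with MARWI, the commonest length held a median of 61.6% and 58.6% of the reads of its end. It was 29 nt for 31.6% of these ends in total small RNA and 44.4% with MARWI. T-start ends had medians of 58.2% and 57.0%, close to those of the G-start ends. Without tRNA parts, the next to last base was G in 34.5% of reads of total small RNA and 41.6% of MARWI-IP, the highest share of any base there, and T-start reads had 36.7% and 37.2%.

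The base composition of all G-start reads of total small RNA was that of tRNA-Gly-GCC. G at position 10, A at position 14 and T at position 8 stood at 64.9%, 65.0% and 68.0% of reads, as in the 31 nt sequence shown above. A at position 10, the base of ping-pong partners of U-start piRNAs, was present in 18.9% of all G-start reads of total small RNA and 38.5% of those of MARWI-IP. Without tRNA parts the difference all but vanished, at 39.3% (39.1 to 39.5) and 39.5% (39.42 to 39.55). Because no listed tRNA 5′ end that begins with G and had reads carries A at position 10, the number of such reads was the same with and without them, 141481 and 973374. Without Y RNA and 5S rRNA parts as well, the shares were 42.7% and 39.5%.

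In total small RNA without tRNA parts, position 10 had the highest share of A of all positions from 2 to 26. The other positions had a mean of 26.9%, and the next highest was position 2 with 37.8%. In MARWI-IP the share at position 10 was exceeded only at position 2, with 46.3%, and was nearly met at position 5, with 39.3%, against a mean of 29.7% over the other positions. Counted once per distinct sequence, A at position 10 was present in 39.3% of the sequences of total small RNA and 34.2% of those of MARWI-IP. An A at position 10 was no feature of G-start reads alone. A-start reads had 42.6% and 38.8%, C-start reads 45.0% and 37.6%, and T-start reads 29.96% and 31.5%.

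At position 2, G was rare in MARWI-IP, with 10.7% of the G-start reads without tRNA parts, and stood at 20.3% in total small RNA, where the Y RNAs begin with GG. In distinct sequences, which the abundant Y RNAs hardly weigh on, it was 14.6% and 13.9%. The preference for A at position 2 was shared with A-start and C-start reads of MARWI-IP, at 41.5% and 47.8%, but not with T-start reads, at 26.8%.

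Most G-start sequences were rare, and the reads were concentrated in few. In total small RNA, 78.3% of the sequences were read once and held 13.1% of reads, while 35 sequences with over 1000 reads held 57.0%. Without tRNA parts 17 sequences had over 1000 reads and held 13.7%. In MARWI-IP, 202 sequences had over 1000 reads and held 33.1%, and without tRNA parts 192 held 31.7%. The 10 most abundant G-start sequences held 49.0% of the G-start reads of total small RNA and 12.0% of those of MARWI-IP. Without tRNA parts the 2 values were alike, at 11.6% and 12.1%.

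G-start sequences were scarcer among abundant than among rare sequences. In MARWI-IP they were 6.72% of all sequences read once, 5.93% of those with 2 to 10 reads, 4.87% with 11 to 100, 2.73% with more than 100 and up to 1000 and 1.62% with over 1000 reads. Their share also fell in total small RNA, where it was 6.13% in the class read once and 2.18% in the class above 100 and up to 1000 reads. Above 1000 reads they were 4.29%. Without tRNA parts the values of these last 2 classes were 1.93% and 2.09%, so most of the rise in the top class went with the tRNA parts. Without tRNA parts a G-start sequence had on average 2.87 reads in total small RNA and 6.23 with MARWI, and a T-start sequence had 6.10 and 21.1.

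With tRNA parts included, the 10 most abundant G-start sequences of the 2 libraries had none in common. Of the 10 most abundant in total small RNA, 9 were parts of a listed tRNA or Y RNA, with S1 the only other. Of the 10 in MARWI-IP, 1 was such a part, the 29 nt form of tRNA-Val-CAC. The other 9 were forms of M1 to M6, of which M1, M4 and M5 appeared in 2 lengths each. Among 5′ ends that matched no listed RNA, the libraries were more alike. The end of M1 led in both, and those of M3, M4, M5 and M7 were among the leading 10 of both.

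M1 had the most reads of any G-start sequence of MARWI-IP, 45757, against 5831 in total small RNA, a ratio of 0.883 (0.860 to 0.908). Its form 1 nt shorter at the 3′ end had 25078 and 1989 reads and a ratio of 1.42 (1.36 to 1.49). All reads from this 5′ end together had a ratio of 0.975 (0.955 to 0.995), so M1 was about as frequent in both libraries and led the unlisted G-start ends of both. M7, with 13854 and 1245 reads, also stood near its total share, at 1.25 (1.18 to 1.33).

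M2 had the highest ratio of the unlisted G-start sequences with at least 100 reads in total small RNA. It had 45199 reads with MARWI and 433 in total small RNA, a ratio of 11.7 (10.7 to 12.9). M4 followed among the leading sequences with 36832 and 747 reads, a ratio of 5.55 (5.16 to 5.97). M5 had 31183 and 751 reads, a ratio of 4.67 (4.35 to 5.03), and M6 had 17884 and 476, a ratio of 4.23 (3.86 to 4.64). M3 had 39407 and 1975 reads and a ratio of 2.25 (2.15 to 2.35). These 5 sequences thus had over 2 times their total share with MARWI. They were chosen by their reads in MARWI-IP, which favours a high ratio. Of all 12450 sequences with at least 1000 reads in MARWI-IP, 49.8% were over 2 times their total share. The base at position 10 was A in M5 and M6 and C in M2, M3 and M4.

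S1 went the other way. It was the most abundant unlisted G-start sequence of total small RNA, with 8390 reads, and had 615 in MARWI-IP, where its share was 121-fold lower. All reads from its 5′ end had 9189 and 2950 reads and a ratio of 0.0361 (0.0347 to 0.0377), so its other lengths were less reduced than the 31 nt form. S1 has A at position 10 and starts like no listed tRNA, Y RNA or 5S rRNA. S2 had 1679 and 4985 reads and a ratio of 0.334 (0.316 to 0.353).

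Among all sequences of the window with at least 100 reads in total small RNA, 13606 in number, 41.8% had under 0.5 times their total share in MARWI-IP and 15.9% had over 2 times that share. Of the 316 G-start sequences among them, 207 (65.5%) were under 0.5 times and 30 (9.49%) over 2 times, with a median ratio of 0.153 against 0.711 over all 13606. The 51 tRNA parts had a median ratio of 0.0102, with 48 under 0.5 times and 0 over 2 times. Without them, 159 of 265 (60.0%) were under 0.5 times and 30 (11.3%) over 2 times, with a median of 0.296. Without Y RNA and 5S rRNA parts as well, 140 of 246 (56.9%) and 30 (12.2%) were, with a median of 0.369. A-start and C-start sequences, from which no such parts were left out, had close medians of 0.352 and 0.363. T-start sequences had a median of 0.746.

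These counts take sequences by their reads in total small RNA. Taken instead by at least 1000 reads in MARWI-IP, the 192 G-start sequences without tRNA parts had a median ratio of 2.25, with 108 (56.3%) over 2 times and 12 (6.25%) under 0.5 times. All 12450 such sequences had a median of 2.00, with 49.8% over 2 times and 4.87% under 0.5 times, close to the G-start values. The G-start median was thus below that of all sequences when they were selected in total small RNA and above it when they were selected in MARWI-IP.

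Within the 246 sequences that matched no listed RNA, the median ratio differed by the base at position 10, but the quartiles overlapped. The 96 with A there had a median ratio of 0.547, with 15 over 2 times and none at 0 reads in MARWI-IP. The 31 with C had a median of 0.466 and the 62 with T 0.344. The 57 with G at position 10 had the lowest median, 0.153, with 0 over 2 times and 6 at 0 reads. The quartiles were 0.0314 and 1.43 for A, 0.110 and 1.47 for C, 0.0971 and 1.21 for T, and 0.00774 and 0.543 for G. Several lengths of 1 end, as in M1, M4 and M5, were counted as separate sequences. In T-start sequences the medians by base at position 10 ran only from 0.655 for C to 0.784 for A. Of the 3521 T-start sequences with A there, 592 were over 2 times and 4 had 0 reads. Of the 2952 with G there, 473 were over 2 times and 5 had 0 reads. By length, the 8 of 26 nt had a median of 0.0594, the 17 of 27 nt 0.0316 and the 37 of 28 nt 0.366. The 77 of 29 nt had 0.545, the 73 of 30 nt 0.441 and the 22 of 31 nt 0.501. The 12 of 32 nt had 0.00351, all 12 of them under 0.5 times. T-start sequences had their lowest medians at the same ends of the window, with 0.448 at 26 nt, 0.393 at 27 nt and 0.304 at 32 nt, against 0.834 at 29 nt. Of the 292 T-start sequences of 32 nt, 175 (59.9%) were under 0.5 times.

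The lowest ratios belonged to sequences with over 100 reads in total small RNA and at most 1 in MARWI-IP. Of the 265 sequences outside the tRNA parts, 10 had 0 reads in MARWI-IP, beside 62 of all 13606 sequences. A-start sequences had 13 of 365 at 0 reads, C-start sequences 13 of 406 and T-start sequences 23 of 12519. Since a count of 0 allows up to 3 reads, sequences with 0 were ranked as if they had 3, which can put a sequence with 1 read below one with 0. The 5 that came lowest in this ranking are shown, with the first base and position 10 in capitals, as the low end of the ratios.
Low 1, 30 nt: GctctggagAggatgtgtccgaatgtgacg
Low 2, 28 nt: GacaaagacGtgcccggcagacctgccc
Low 3, 27 nt: GtttcgtgaGgataagtaactctgagg
Low 4, 30 nt: GtcgatgatGagaaccttatattgttctga
Low 5, 31 nt: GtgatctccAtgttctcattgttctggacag
Low 2 had 735 reads in total small RNA and 0 with MARWI. At the limit of 3 reads its share was at least 2177-fold lower. Low 1 had 313 reads and 1 read, a ratio of 0.000360 (9.08e-06 to 0.00202), and Low 3 had 180 and 1. Low 4 had 147 and 1, and Low 5 had 138 and 1. The reads of Low 5 were a special case, since its 5′ end had 363 reads in MARWI-IP over all lengths, against 394 in total small RNA, while the ends of Low 1, Low 3 and Low 4 had no more than 2. The share of the Low 5 end was still lower in MARWI-IP, which had 106621469 reads in the window against 12001432.

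Besides M2 and M4, the 5 highest ratios held 3 sequences, likewise with the first base and position 10 in capitals.
High 2, 28 nt: GttttgttcTggttctgtctctggtggt
High 3, 29 nt: GagaaaggaAtgaacgaagaatagaaaga
High 5, 30 nt: GtactagacAcaactgatccctttctggac
High 2 had 136 reads in the total library against 7733 with MARWI, a ratio of 6.40 (5.40 to 7.64). High 3 had 167 and 9128 reads, a ratio of 6.15 (5.28 to 7.21), and High 5 had 100 and 4735, a ratio of 5.33 (4.37 to 6.56). No base at position 10 was common to the highest ratios.

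Many G-start reads lay next to a stronger 5′ end. An end was taken as a neighbour if it overlapped the read's sequence at a shift of 1 to 3 nt. Without tRNA parts, 43.2% of the G-start reads of total small RNA and 54.9% of those of MARWI-IP had a neighbour with more reads than their own end, and 18.2% and 27.3% had one with at least 10 times as many. Of the reads with a stronger neighbour, 78.4% and 84.1% had one that began with T, where T began 84.0% and 89.9% of all reads of the window. Of the distinct G-start sequences without tRNA parts, 49.1% and 57.1% had a stronger neighbour, and 38.7% and 45.7% had one that began with T. Among all distinct sequences of the window, T began 75.5% and 72.8%. Whether T-start neighbours were in excess was not tested. In MARWI-IP the neighbour 1 nt upstream was the most frequent, for 16.2% of the G-start reads. Stronger neighbours were less frequent for T-start reads, at 21.4% and 20.8%, and for A-start reads, at 35.1% and 45.2%, and about as frequent for C-start reads, at 46.2% and 52.7%.

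M5 was such a case. Its 5′ end had 60643 reads in MARWI-IP, and the end 1 nt downstream, which begins with T, had 415891. In total small RNA the 2 ends had 1755 and 11494 reads. M4 lacked it, with 61923 reads at its end in MARWI-IP and 75 at its strongest neighbour. For M2 the end had 48853 reads and the strongest neighbour, 1 nt downstream and starting with C, had 9573. For S1 the T-start end 1 nt downstream had 1905 reads in MARWI-IP against 2950 at its own. Of M1 to M7, M5 was the only one with a stronger neighbour in MARWI-IP. M1 came nearest among the others, with 87877 reads at its end and 51147 at the A-start end 1 nt downstream. S2 had 6731 reads at its end and 9631 at the T-start end 1 nt upstream.

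A at position 10 was not confined to reads with a stronger neighbour. G-start reads without one had A there in 40.8% of total small RNA and 42.0% of MARWI-IP, and those with one in 37.3% and 37.4%. Where the stronger neighbour was a T-start end 1 nt downstream, 65.4% of MARWI-IP reads had A at position 10 and 60.3% at position 11, but M5 and its other lengths, which have A at both, are 60643 of those 151313 reads. An otherwise identical sequence with T in place of the first G was present for 0.197% of the G-start reads of total small RNA and 0.160% of those of MARWI-IP, so few of them differed from a T-start read by the first base alone.

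Complementary 5′ ends, the mark of ping-pong pairs, were counted between G-start reads and all reads of the window, as the ratio of observed pairs to those given by the base shares at each position. At an overlap of 10 nt the ratio was 3.71 in total small RNA and 2.62 with MARWI. At 9 nt it was 0.994 and 1.47, and at 11 nt 8.82 and 19.2, so the ratio of G-start reads did not peak at 10 nt. T-start reads were counted at 9 to 11 nt only. Their ratio was 1.28 and 1.29 at 9 nt, 16.7 and 43.0 at 10 nt and 2.19 and 1.70 at 11 nt. Within this range it was highest at 10 nt in both libraries. C-start reads resembled G-start reads in total small RNA, with 4.05 at 10 nt and 7.07 at 11 nt. In MARWI-IP they did so at 10 nt, with 2.64, but not at 11 nt, with 3.02 against 19.2. A-start reads had 3.46 and 2.29 at 10 nt and 3.07 and 5.09 at 11 nt.

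The 5 leading pairs of ends held 34.5% of the 10 nt pairs of G-start reads in total small RNA and 55.97% with MARWI, and 73.6% and 93.4% of the 11 nt pairs. T-start pairs at 10 nt were more concentrated, at 67.9% and 91.7%. The leading pair at 11 nt in MARWI-IP was that of M5, and the leading pair at 10 nt in both libraries was that of M1. They are shown with the complementary bases in capitals.
M5: GTGGAAGAAAAgttggatgcatttgaagt
partner of M5: TTTTCTTCCACctttgtgtcctctgtgtcc
M1: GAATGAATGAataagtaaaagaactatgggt
partner of M1: TCATTCATTCgttcgtccatcccatggagc
The pair of M5 was 55.2% of the 11 nt pairs of G-start reads without tRNA parts in MARWI-IP, and its partner had 7309 reads. The pair of M1 was 27.97% of such pairs at 10 nt in MARWI-IP, and 16.2% of those in total small RNA, and its partner had 1489 and 182 reads. The complementary bases of M1 are a repeated GAAT unit. Without the 5 leading pairs the G-start ratio at 10 nt was 2.43 in total small RNA and 1.15 with MARWI, and at 11 nt 2.33 and 1.26. In total small RNA it was higher at 12 and 13 nt, at 3.96 and 7.48, so the 10 nt value was no maximum there. T-start reads without their 5 leading pairs kept 5.37 and 3.55 at 10 nt, against 1.73 and 1.10 at 11 nt, and were not counted at 12 and 13 nt. Pairs were matched by sequence alone, so reads of different loci count among them.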

How the data were processed

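The deposited small RNA lists pair each distinct sequence with its read count, a whole number that the authors left without normalization. How reads were trimmed, filtered and mapped is not given in the sources used here, nor is a build. The list of total small RNA holds 20 to 51 nt, 14138166 reads in all, and that of MARWI-IP only 24 to 33 nt, 110209593 reads, so its sum is not the depth of the library. The RNA-seq table was not used.

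Sequences of 26 to 32 nt with first base G were selected and shares taken over all reads of that length, with exact (Clopper-Pearson) 95% intervals and exact binomial intervals for ratios, in Python 3.11.15 with numpy 2.4.6, pandas 2.3.3 and scipy 1.17.1. Listed tRNA 5′ ends (27), Y RNA 5′ ends (3) and the 5S rRNA end, all beginning with G, were matched by their first 18 nt. Parts of such RNAs that begin with another base were not removed. These were written from knowledge of mammalian RNAs after the leading sequences had been seen, so RNAs that differ within 18 nt, or are not listed, remain among the others. Named sequences were the 10 most abundant G-start sequences of each library, with and without tRNA parts, and the 5 highest and 5 lowest ratios among those without tRNA parts with at least 100 reads in total small RNA, where 0 reads in MARWI-IP ranked as 3. The pairs, the leading 5′ ends and single tRNAs were named after their values were seen. The set, the lists and the measures were chosen with earlier results of these data known. Expected numbers of complementary ends came from base shares at each position. The counting was tested on simulated sequences with planted pairs and shifted ends. Alternatives were other length windows, distinct sequences, removal of sequences read once or of leading sequences, and other tRNA matches.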

Additional observations from a re-analysis of the deposited data

Results flagged for a closer look

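Outside the length window, 2 values came from reads that the comparisons do not use. Among the 487680 reads of 33 to 51 nt in total small RNA, G began 50.04% (49.9 to 50.2), above its 6.24% at 26 to 32 nt. Of these G-start reads 83.9% were listed tRNA parts and 6.996% parts of Y RNAs or 5S rRNA. Among the 1649054 reads of 20 to 25 nt, G began 3.63% (3.61 to 3.66), and 9.03% of these G-start reads were listed tRNA parts. Both were marked because the comparisons leave these reads out, and there was no control library to compare them with.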

How the results depend on the processing

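No paired analysis was possible because each library has 1 column and no replicate numbers. Values were compared with the counting intervals of those reported, which are narrow at this depth, so most alternatives moved them. Below, values are given for total small RNA first and MARWI-IP second. The direction of the G-start ratio turned in 1 alternative: counted once per distinct sequence, it was 1.10, with G-start shares of 5.75% and 6.34%. Thinning MARWI-IP to the depth of total small RNA, an alternative chosen after seeing the data, gave 0.985, with 5.75% and 5.66%.

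The ratio was 0.321 over 24 to 33 nt (7.61% and 2.44%), 0.427 over 28 to 31 nt (5.36% and 2.29%), 0.350 without sequences read once (6.26% and 2.19%), 0.651 without the 10 most abundant sequences of each library (3.96% and 2.58%), 0.746 without tRNA parts in both the count and its base (3.10% and 2.31%), and 0.807 with Y RNA and 5S rRNA parts left out as well (2.86% and 2.31%).

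The share at 29 and 30 nt was 24.1% and 56.4% over 24 to 33 nt, 43.2% and 69.0% over 28 to 31 nt, 45.2% and 48.2% over distinct sequences, 29.6% and 61.9% without sequences read once, 44.2% in total small RNA without the 10 most abundant, 49.0% and 60.3% without tRNA parts, and 51.6% and 60.4% without Y RNA and 5S rRNA parts too.

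A at position 10 stood at 15.6% and 37.9% over 24 to 33 nt, 21.6% and 39.2% over 28 to 31 nt, 39.2% and 34.2% over distinct sequences (39.2% and 35.4% thinned), 15.8% and 39.2% without sequences read once, 31.4% in total small RNA without the 10 most abundant, 39.3% and 39.5% without tRNA parts, and 42.7% and 39.5% without Y RNA and 5S rRNA parts too.

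A stronger neighbouring end was found for 17.3% and 53.8% of reads over 24 to 33 nt, 23.7% and 52.5% over 28 to 31 nt, 44.0% and 51.2% of distinct sequences, 17.3% and 54.0% without sequences read once, 34.6% in total small RNA without the 10 most abundant, and 43.2% and 54.9% without tRNA parts. The ratio for complementary ends of 10 nt has no interval and was judged by a 1.5-fold change. It went past that over distinct sequences, to 1.94 and 1.60, and without the 5 leading pairs, chosen after seeing the data, to 2.43 and 1.15. Its other values were 3.29 to 4.42 and 2.33 to 2.72.

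The tRNA share was 59.5% and 2.55% over 24 to 33 nt, 47.3% and 2.28% over 28 to 31 nt, 0.138% and 0.0326% of distinct sequences, 20.2% in total small RNA without the 10 most abundant, and 52.1% and 2.54% when bases shared by nearly all tRNAs replaced the list, an alternative chosen after seeing the data. The 10 most abundant sequences held 53.6% and 11.2% over 24 to 33 nt, 48.4% and 13.7% over 28 to 31 nt, and 11.6% and 12.1% without tRNA parts. With a minimum of 50 total reads, 393 G-start sequences were under 0.5 times and 65 over 2 times their total share (61.1% and 10.1% of 643), and with 200, 106 and 15 (70.2% and 9.93% of 151). Depth limits the single ratios of sequences with 0 to 3 reads in MARWI-IP.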
